A study of Mus musculus with 10 samples.

Results

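The serum amyloid A genes Saa1, Saa2, Saa3 and Saa4 and 6 further acute phase genes (Orm1, Orm2, Hp, Lcn2, Apcs and Serpina3n) were followed in livers of mice without the glucagon receptor. The genes were chosen with earlier results of these data known, so counts set against all genes below describe them and are not a test. Probes were taken by name: every array probe that carries 1 of these 10 gene names or an older synonym, which gave 12 probes. Saa1 and Saa4 had a pair of probes each, of which the brighter stood for the gene. The 10 genes stood among 18921 genes tested, from 41174 distinct probes on the array. The study set livers of 5 mice with genotype GCGR ko/ko (KO; 3 females and 2 males) against livers of 5 wt/wt mice (WT; 2 females and 3 males). The labels give neither strain, age, diet nor the deleted part of the receptor gene, and they name no treatment. Each array carried the Cy5-labelled RNA of 1 liver beside a Cy3-labelled universal mouse reference from Stratagene, a pool of mouse RNA that was the same on all arrays. Values below are log2 ratios of liver over reference, so a difference of 1 between livers is a doubling, and levels of different probes are not set against each other.

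Acute phase proteins are plasma proteins that hepatocytes make in larger or smaller amounts when the body meets infection or injury. Interleukin-6, acting through gp130 (Il6st) and STAT3, and interleukin-1 and TNF, acting through NF-kB and C/EBP factors, switch on their genes, and Saa1 and Saa2 are among the most inducible of all mouse liver genes. Glucagon acts on hepatocytes through its receptor and cAMP and is best known for raising glucose output and amino acid breakdown in fasting.

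Gcgr, the deleted gene, matched its label in every liver, with log2 ratios of 0.28 to 0.36 in KO livers and 7.74 to 8.14 in WT livers. The tissue label was borne out by the hepatocyte markers, of which 9 of 10 were measured, with mean log2 ratios of 7.13 to 7.26 in KO livers and 6.94 to 7.50 in WT livers. The arrays lay on 4 slides. Slide 1 held KO 1, KO 2, WT 1 and WT 2, and slide 2 held KO 3 and KO 4. Slide 3 held KO 5, WT 3 and WT 4, and slide 4 held WT 5. No slide held females of both genotypes, so genotype and slide cannot be told apart within females. Males of both genotypes shared only slide 1. Median net Cy5 signal, the liver channel after local background subtraction, was 71.8 to 133 in KO livers and 58.7 to 134 in WT livers. The 2 male KO livers stood apart at some marker genes of other cells. The mean log2 ratio of 5 adipocyte markers was 2.54 in KO 1 and 2.14 in KO 5, against 0.63 to 0.88 in the other KO livers and 0.77 to 1.12 in WT livers. These markers did not vary alike. Among KO livers the SD was 3.58 for Cfd, which was well above background on 4 arrays, and 0.59 for Fabp4. It was 0.12 for Plin1, 0.12 for Retn and 0.21 for Adrb3. The mean of 5 neutrophil markers was 1.83 in KO 5, against 0.62 to 0.85 in the other KO livers and 0.55 to 0.97 in WT livers. Among KO livers the SD was 1.05 for S100a9, 0.91 for S100a8 and 0.70 for Ltf, against 0.17 for Mpo and 0.17 for Csf3r.

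Of the 10 genes, 3 fell in KO livers (Saa1, Saa3 and Orm1) and none rose, counting Saa3 by its probe, whose signal cannot be told apart from that of Saa1, with genotype and sex in the limma model and a Benjamini-Hochberg adjusted p under 0.05 over all genes counted as passing. Over all genes tested, 3.08% passed as lower in KO, 2.88% as higher and 5.96% in either direction. The fold change lay below 0 in 9 of the 10 genes, with Apcs above it, and the median over the 10 was -0.34 on the log2 scale, against -0.0028 over all genes. At an unadjusted p under 0.05 the count was 7 of the 10 genes, against 20.9% of all genes. As the 10 genes were chosen with earlier results of these data known, these shares are a description and not a test. Leaving out KO 1 left 0 of the 10 genes past the threshold by limma, and leaving out KO 2, KO 4, WT 1 or WT 4 left 1. Of all 18921 genes, 596 passed without KO 1 and 667 to 1061 without 1 of the others, against 1127 with every liver. Without both male KO livers 0 of the 10 passed, where 779 of all genes did. The fold changes were then -1.77 for Saa1 (limma adjusted p = 0.0688), -1.48 for Saa3 (0.117) and -0.23 for Orm1 (0.336). The tissue is bulk liver, so fewer cells of a type and less RNA per cell cannot be told apart in any of these values.

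Saa1 and Saa2 encode the secreted acute phase apolipoproteins that ride on high density lipoprotein, Saa3 encodes a serum amyloid made by many cell types including macrophages and fat cells, and Saa4 encodes the constitutive member, which in mouse changes little with inflammation. The genes lie together on chromosome 7. Their promoters are shown because Saa1 and Saa2 share theirs almost letter for letter while their fold changes differed by ratio. In the liver channel alone the fold changes lay close, at -2.01 for Saa2 and at -1.78 and -2.06 for the Saa1 probes. The sequences are from RefSeq (GRCm38.p6), 250 bases before to 50 bases after the annotated start, on the strand of the gene. Capitals mark matches of the C/EBP motif TTGCNNAA on either strand.
Saa1, chr7:46742931-46743230, minus strand: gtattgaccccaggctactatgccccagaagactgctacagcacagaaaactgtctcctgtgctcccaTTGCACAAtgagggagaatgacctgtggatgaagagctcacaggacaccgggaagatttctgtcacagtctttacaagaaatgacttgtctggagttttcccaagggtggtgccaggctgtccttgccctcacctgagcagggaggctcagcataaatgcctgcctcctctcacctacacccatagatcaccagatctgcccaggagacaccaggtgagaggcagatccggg
Saa2, chr7:46751583-46751882, plus strand: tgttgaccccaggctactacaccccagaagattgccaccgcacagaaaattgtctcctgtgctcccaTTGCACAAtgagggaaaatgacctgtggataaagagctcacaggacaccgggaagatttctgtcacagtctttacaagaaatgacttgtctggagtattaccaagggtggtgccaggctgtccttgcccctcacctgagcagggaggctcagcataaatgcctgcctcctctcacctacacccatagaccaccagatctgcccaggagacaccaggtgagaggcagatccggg
Saa3, chr7:46715627-46715926, minus strand: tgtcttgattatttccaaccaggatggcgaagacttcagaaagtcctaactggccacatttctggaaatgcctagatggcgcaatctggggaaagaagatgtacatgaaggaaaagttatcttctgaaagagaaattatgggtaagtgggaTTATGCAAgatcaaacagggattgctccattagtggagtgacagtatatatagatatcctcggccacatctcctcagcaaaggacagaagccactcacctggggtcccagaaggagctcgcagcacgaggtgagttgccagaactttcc
Saa4, chr7:46732554-46732853, minus strand: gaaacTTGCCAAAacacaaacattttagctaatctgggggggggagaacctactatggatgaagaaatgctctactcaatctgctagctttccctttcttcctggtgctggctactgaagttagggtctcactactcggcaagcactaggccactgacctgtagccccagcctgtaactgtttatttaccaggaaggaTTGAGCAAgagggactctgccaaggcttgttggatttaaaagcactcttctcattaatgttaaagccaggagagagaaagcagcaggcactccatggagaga

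The Saa1 and Saa2 promoters were identical at 287 of 301 aligned positions (95.3%), and both held the match TTGCACAA, at -182 to -175 from the start in Saa1 and at -183 to -176 in Saa2. The other 27 pairs among the 8 promoters listed (those of Saa1 to Saa4, Orm2, Lcn2, Apcs and Serpina3n) were 47.2% to 54.2% identical, Saa1 with Saa3 at 54.2%. The C/EBP motif was present in 6 of the 8, in all but Apcs and Serpina3n, against 10.8% of the 32851 promoters of this length in the table. The STAT motif TTCNNNGAA was present in 1 of the 8, Apcs, against 8.30% of all promoters, and the NF-kB consensus in 0 of the 8, against 8.46%. No match of one motif overlapped a match of another. These are letter matches in a short window, and the arrays did not measure binding.

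By ratio Saa1 had the lowest fold change of the 10 genes, while in the liver channel alone that of Saa2 was lower than at the brighter Saa1 probe. Its brighter probe read 1.98, 0.92, 1.49, 1.15 and 2.92 in KO livers 1 to 5, against 4.60, 3.38, 2.08, 3.83 and 3.79 in WT livers 1 to 5. The groups overlapped only through KO 5, a male, which lay above WT 3, a female, and within each sex every KO liver lay below every WT liver. The mean was 1.69 ± 0.80 in KO livers and 3.54 ± 0.93 in WT livers (SD, n = 5 each). With sex in the model the KO minus WT difference was -1.62 on the log2 scale (SE 0.34, limma adjusted p = 0.0169), 3.07-fold lower in KO livers. A second Saa1 probe read 4.81, 3.69, 4.50, 4.24 and 5.69 in KO livers, against 6.38, 5.95, 5.03, 5.72 and 6.26 in WT livers. Again only KO 5 lay above a WT liver, WT 3, and the fold change was -1.09 (SE 0.21, limma adjusted p over all 26933 probes kept = 0.0113). In the coordinates of the array files, which name the older build mm7, the probes lie on chromosome 7 at 42916901 to 42916960 and at 42916998 to 42917470.

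The size of the Saa1 difference varied with the slides. It was -2.004 within slide 1 (KO 1 and KO 2 against WT 1 and WT 2) and -0.03 within slide 3, where a KO male stood against WT females, and -1.68 with slide as a block (limma adjusted p = 0.0504). Left out in turn, only KO 1 ended the call, at limma adjusted p = 0.0647 and a fold change of -1.47.

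Saa3 gave almost the profile of Saa1. Its probe read -1.10, -1.98, -1.79, -2.09 and -0.30 in KO livers 1 to 5, against 1.30, -0.05, -1.35, 0.40 and 0.58 in WT livers. As for Saa1, KO 5 was the highest KO liver, WT 3 the lowest WT liver, and within each sex all KO livers lay below all WT livers. The log2 fold change was -1.39 (SE 0.33, limma adjusted p = 0.0302), which is 2.63-fold lower in KO livers, with means of -1.45 ± 0.75 in KO livers and 0.18 ± 0.98 in WT livers (SD, n = 5 each). The array files list accessions of both Saa3 and Saa1 for this probe. After each gene was centred on its own mean, the Saa3 probe differed from Saa1 by a root mean square of only 0.16 over the 10 livers, where Saa1 itself varied by 1.20. Signal from Saa3 RNA and signal from Saa1 RNA therefore cannot be told apart with this probe, and every count of genes given here holds Saa3 by its probe only. The Saa3 call ended without any of the KO livers 1 to 4, and without WT 1 or WT 4 (limma adjusted p of 0.0505 to 0.101), and its fold change was -1.36 with slide as a block (limma adjusted p = 0.103), -1.72 within slide 1 and 0.18 within slide 3.

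Saa2 differed less by ratio. Its probe read 4.85, 4.10, 4.79, 4.43 and 5.15 in KO livers 1 to 5, against 5.55, 5.22, 4.89, 5.16 and 5.26 in WT livers. The groups overlapped through KO 5 and WT 3 again, and did not overlap within either sex. The log2 fold change was -0.46 (SE 0.14, limma adjusted p = 0.0716), which did not pass, with a 95% interval of -0.76 to -0.16. It passed with slide as a block, at -0.56 (limma adjusted p = 0.0334), and without KO 3, at -0.53 (0.0457).

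Genes without overlap within either sex, all KO livers below all WT livers of the same sex, were Saa1, Saa2, Saa3, Orm1 and Serpina3n. These were 5 of the 10, against 5.86% of all genes. KO and WT females lay on different slides, so the female part of this count cannot be told apart from slide. The male part is free of slide only for KO 1 against WT 1 and WT 2.

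Saa4 did not pass for genotype. Its brighter probe read 6.69, 5.93, 6.01, 6.07 and 7.19 in KO livers 1 to 5, against 7.24, 7.01, 6.43, 6.78 and 6.58 in WT livers. The 3 KO females were the lowest of the 10 livers, while KO 5, a male, lay below only WT 1. The log2 fold change was -0.30 (SE 0.16, limma adjusted p = 0.325), and the second probe gave -0.29 (SE 0.15). In the mm7 coordinates of the array files the other serum amyloid probes lie on chromosome 7, at 42930366 to 42930425 for Saa2, 42888862 to 42888921 for Saa3, and 42905591 to 42905650 and 42904493 to 42904552 for Saa4.

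**Figure D1:**
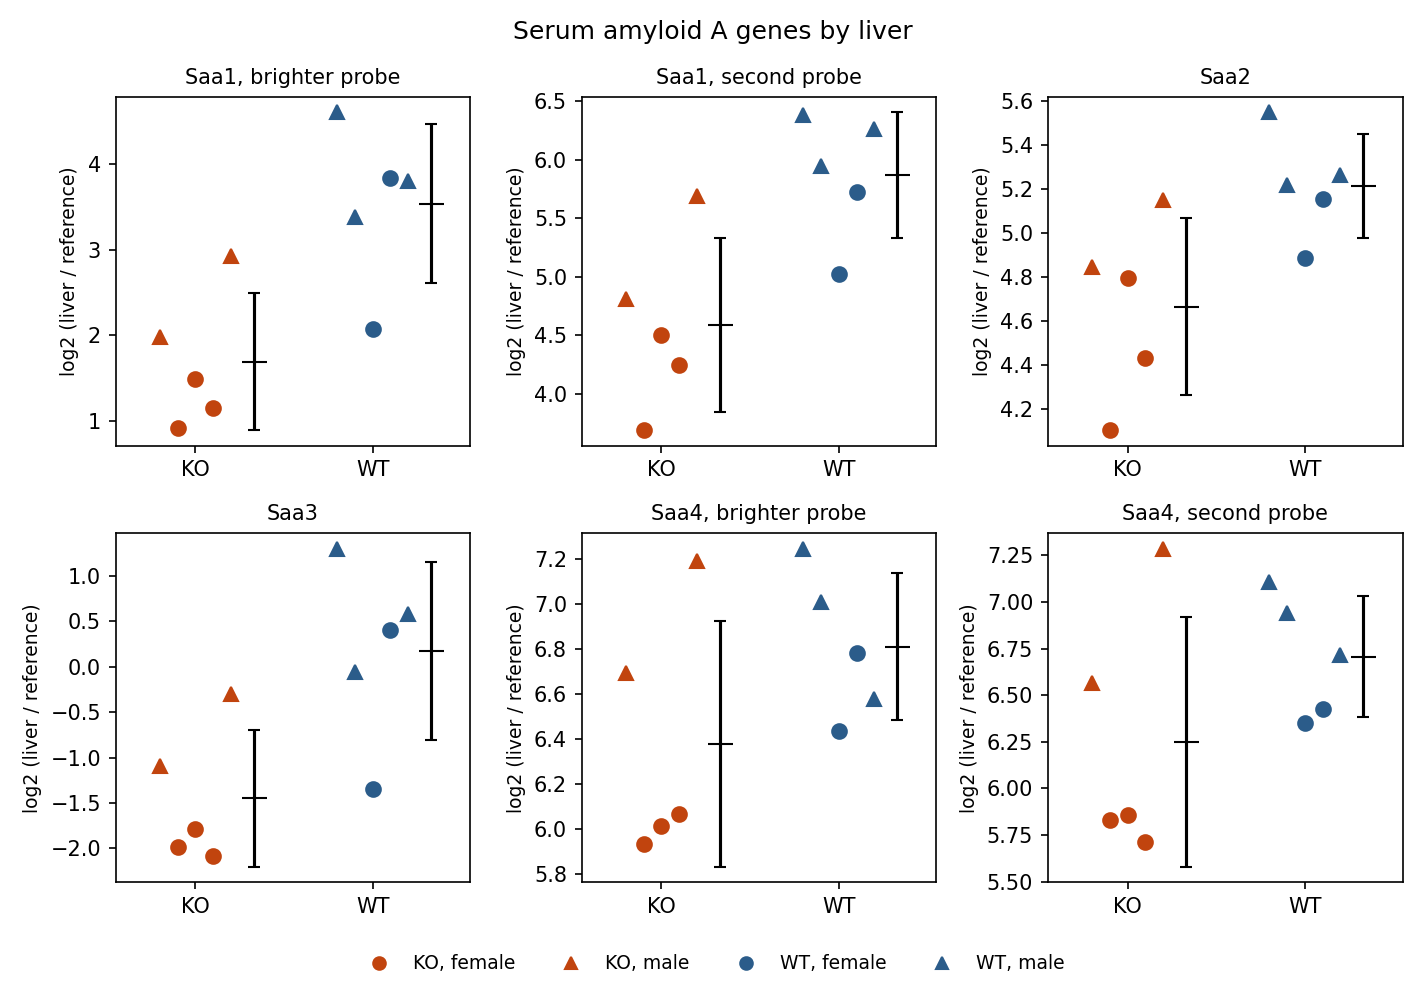
Log2 ratio of liver over reference at the 6 serum amyloid A probes, 1 panel per probe, with KO livers left of WT livers. Each circle is a female and each triangle a male liver, and bars give the mean ± SD (n = 5 each). At the brighter Saa1 probe KO livers run from 0.92 to 2.92 and WT livers from 2.08 to 4.60, and the Saa3 panel has nearly the same shape.

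The small ratio change at Saa2 went with an unequal reference channel. Every array received the same reference RNA, yet net Cy3 signal at the Saa2 probe was 222, 126, 213, 160 and 429 in KO livers 1 to 5, against 1517, 634, 227, 1085 and 979.9 on the WT arrays. It was high on the arrays whose liver channel was high, where net Cy5 ran from 2636 to 10770 in KO livers and from 6236 to 74860 in WT livers. After scaling of the arrays, Saa2 Cy3 varied 10.6-fold over the 10 arrays, which 0.0313% of 25570 probes reached, and the median probe varied 1.22-fold. The second Saa1 probe did likewise, with Cy3 of 53.9 to 130 on KO arrays and 71.9 to 489 on WT arrays, an 8.28-fold range that 0.0587% of probes reached. At the brighter Saa1 probe Cy3 was 1985 to 2484 on KO arrays and 1676 to 2844 on WT arrays (1.33-fold after scaling). At Saa3 it was 3368 to 3750 on KO arrays and 3022 to 3695 on WT arrays (1.12-fold). The brighter Saa4 probe had a Cy3 range of 2.72-fold after scaling, which 1.26% of probes reached.

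With the liver channel alone, quantile-normalised Cy5 without division by Cy3, Saa2 passed as lower in KO livers, with a fold change between those of the Saa1 probes. Its log2 Cy5 signal was 12.38 ± 0.91 in KO livers and 14.62 ± 1.16 in WT livers (SD, n = 5 each). The difference was -2.01 (SE 0.43, limma adjusted p over all probes = 0.0175) in Cy5, against -0.46 by ratio. The Saa1 probes gave -1.78 (SE 0.39, 0.0201) and -2.06 (SE 0.37, 0.00716), and Saa3 gave -1.46 (SE 0.32, 0.0215). In this channel 5.68% of all probes passed, 3.14% as lower in KO. The genes that passed were Saa1, Saa2, Saa3 and Orm1, 4 of the 10. Over the 10 arrays net Cy5 at the Saa2 probe stayed at 0.82 to 1.18 of that at the brighter Saa1 probe. Whether these probes share RNA was not tested, so Saa2 is counted here by its probe only. Cy5 alone keeps any difference in spot size or labelling between arrays that the ratio removes, and with slide as a block in the same channel Saa2 was -2.12 (limma adjusted p over probes = 0.0535). Without KO 1 the Saa2 fold change in Cy5 was -1.83 (limma adjusted p = 0.0669), and it passed without any other liver. The cause of the Cy3 variation was not tested.

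**Figure D2:**
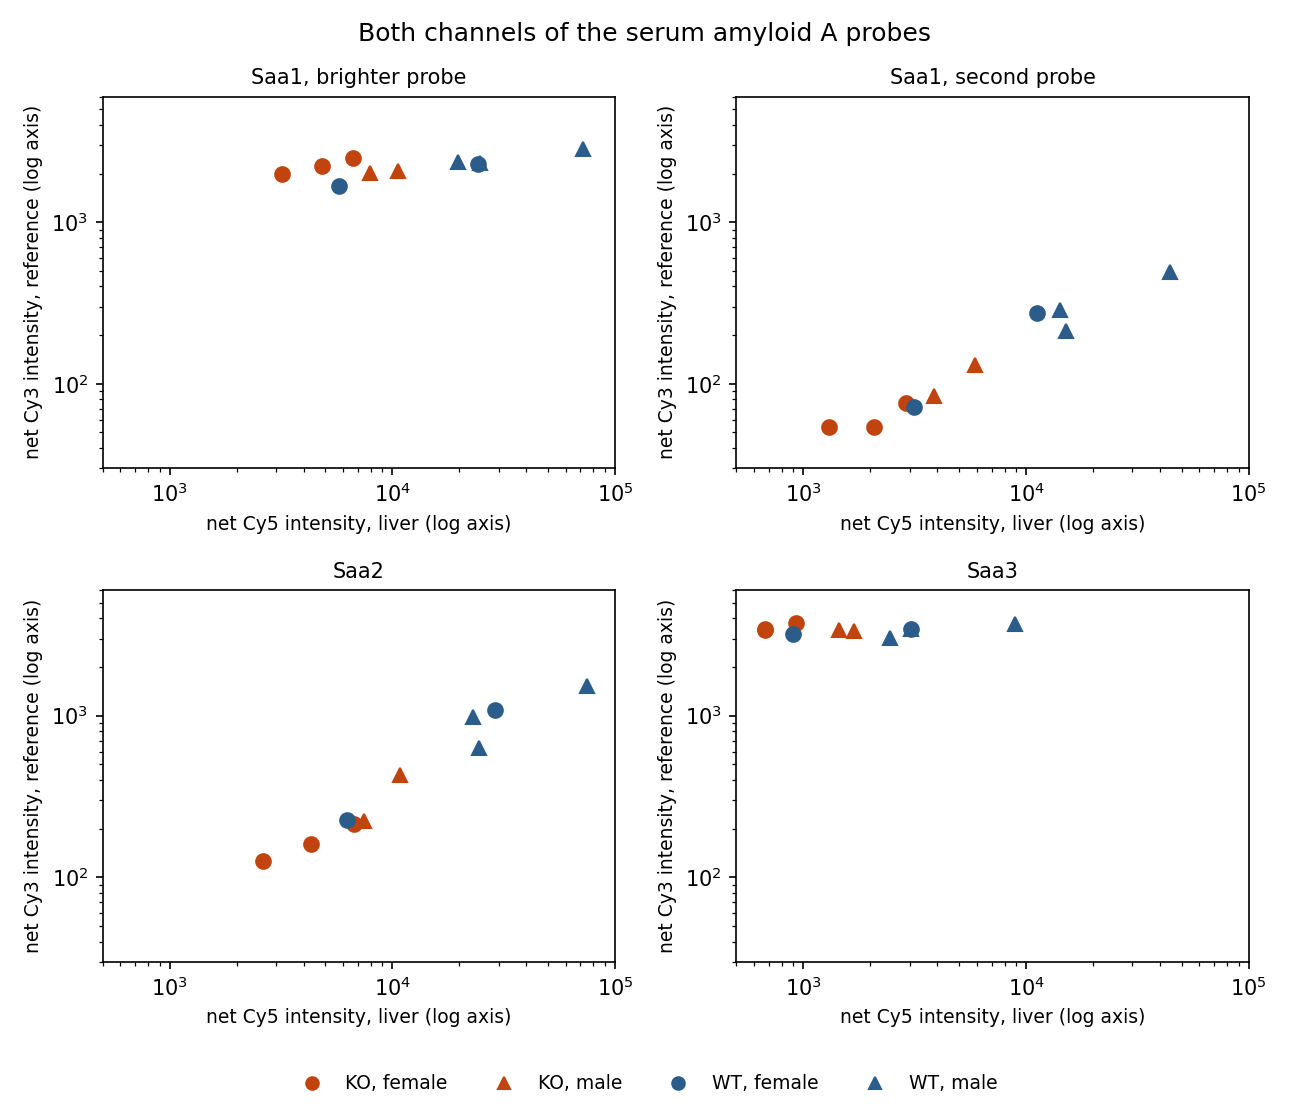
Net Cy5 intensity of the liver (x axis) against net Cy3 intensity of the common reference (y axis), both on log axes, at 4 serum amyloid A probes, with KO and WT livers in different colours, circles for females and triangles for males. At Saa2 and at the second Saa1 probe the reference channel climbs with the liver channel, up to 1517 at Saa2 in WT 1, while at Saa3 it stays between 3022 and 3750.

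**Figure D3:**
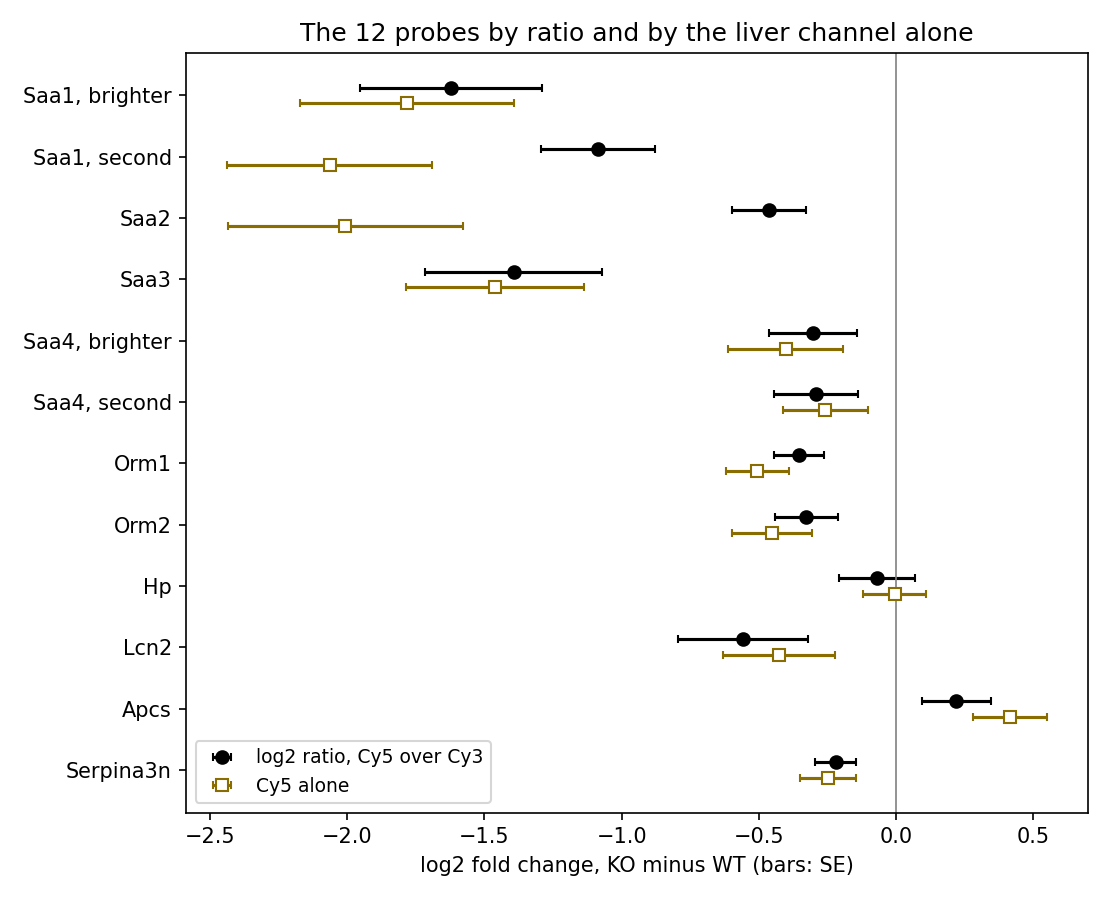
Log2 fold change, KO minus WT, with its standard error at each of the 12 probes, by the ratio of both channels (filled circles) and by Cy5 alone (open squares). The measures lie far apart at Saa2 (-0.46 and -2.01) and at the second Saa1 probe (-1.09 and -2.06), and near each other at the brighter Saa1 probe, Saa3, Saa4 and Hp.

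Orm1 and Orm2 encode orosomucoid, or alpha-1-acid glycoprotein, a carrier of drugs and lipids in plasma. Orm1 read 6.92, 6.76, 7.08, 7.07 and 7.12 in KO livers 1 to 5, against 7.55, 7.37, 7.15, 7.26 and 7.56 in WT livers. All KO livers lay below all WT livers, as they did for 3.08% of all genes, where 6.06% showed no overlap in either direction. The means were 6.99 ± 0.15 in KO livers and 7.38 ± 0.18 in WT livers (SD, n = 5 each). KO livers differed by -0.35 (SE 0.09, limma adjusted p = 0.0454), which is 1.28-fold. Leaving out any liver but KO 3 ended the call (limma adjusted p of 0.0554 to 0.152), and so did the authors' value table (-0.33, 0.0523), the scanner's log ratio (-0.21, 0.158) and removal of outlier spots after the background fit (-0.07, 0.955). Within slide 1 the fold change was -0.53 and within slide 3 it was -0.09.

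Orm2 read 6.47, 6.69, 6.53, 6.51 and 6.99 in KO livers 1 to 5, against 7.28, 7.10, 6.79, 6.99 and 6.82 in WT livers. Only KO 5 lay among the WT livers. The log2 fold change was -0.33 (SE 0.12, limma adjusted p = 0.125) and did not pass, though its size was close to that of Orm1. By the scanner's log ratio Orm2 passed (-0.44, limma adjusted p = 0.0186), so that the 3 genes past the threshold were then Saa1, Saa3 and Orm2. Orm1 and Orm2 are closely similar neighbours on chromosome 4 (probes at 62779145 to 62779752 and 62797641 to 62797700, mm7), so their probes may share RNA, which was not tested. Orm3, the third orosomucoid gene of the mouse, had a fold change of 0.10 (SE 0.32, limma adjusted p = 0.895).

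Hp encodes haptoglobin, which binds free haemoglobin. Its log2 ratios were 7.37, 7.19, 7.11, 7.21 and 7.08 in KO livers, against 7.83, 7.52, 7.21, 6.75 and 7.30 in WT livers. The KO livers all lay inside the range of the WT livers. The fold change was -0.07 (SE 0.14, limma adjusted p = 0.830), with a 95% interval of -0.38 to 0.24. Its probe (chromosome 8, 108175404 to 108175463, mm7) was the brightest of the 12, with net Cy5 of 235057 to 478698 and no saturated spot.

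Serpina3n, the mouse gene closest to human alpha-1-antichymotrypsin, an inhibitor of serine proteases, read 4.13, 4.33, 4.31, 4.31 and 4.30 in KO livers, against 4.48, 4.38, 4.62, 4.37 and 4.56 in WT livers. All KO livers lay below all WT livers, by a small margin, at a probe on chromosome 12 (101908030 to 101908089, mm7). The fold change of -0.22 (SE 0.07, limma adjusted p = 0.105) did not pass.

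Apcs encodes serum amyloid P component, a pentraxin and a main acute phase reactant of mice. It read 3.85, 4.99, 4.79, 4.97 and 4.30 in KO livers, against 4.19, 3.81, 4.55, 4.40 and 4.22 in WT livers. The 3 KO females were the highest of the 10 livers at this probe (chromosome 1, 172866511 to 172866570, mm7). The fold change was 0.22 (SE 0.13, limma adjusted p = 0.363), the only one of the 10 above 0. It was -0.16 within slide 1 and -0.18 within slide 3.

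Lcn2 encodes lipocalin 2, which binds bacterial iron carriers and is made by hepatocytes and neutrophils. Its probe (chromosome 2, 32392828 to 32393072, mm7) was dim, with net Cy5 of 30.03 to 172, and was well above background in 4 of 5 KO and 4 of 5 WT livers. It read -1.62, -1.27, -1.32, -1.28 and -1.19 in KO livers, against -1.05, -1.54, -1.05, 0.29 and -0.99 in WT livers. WT 4 stood highest, well above the other livers. The fold change was -0.56 (SE 0.24, limma adjusted p = 0.206) and did not pass, and without WT 4 it was -0.22 (0.379).

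**Figure D4:**
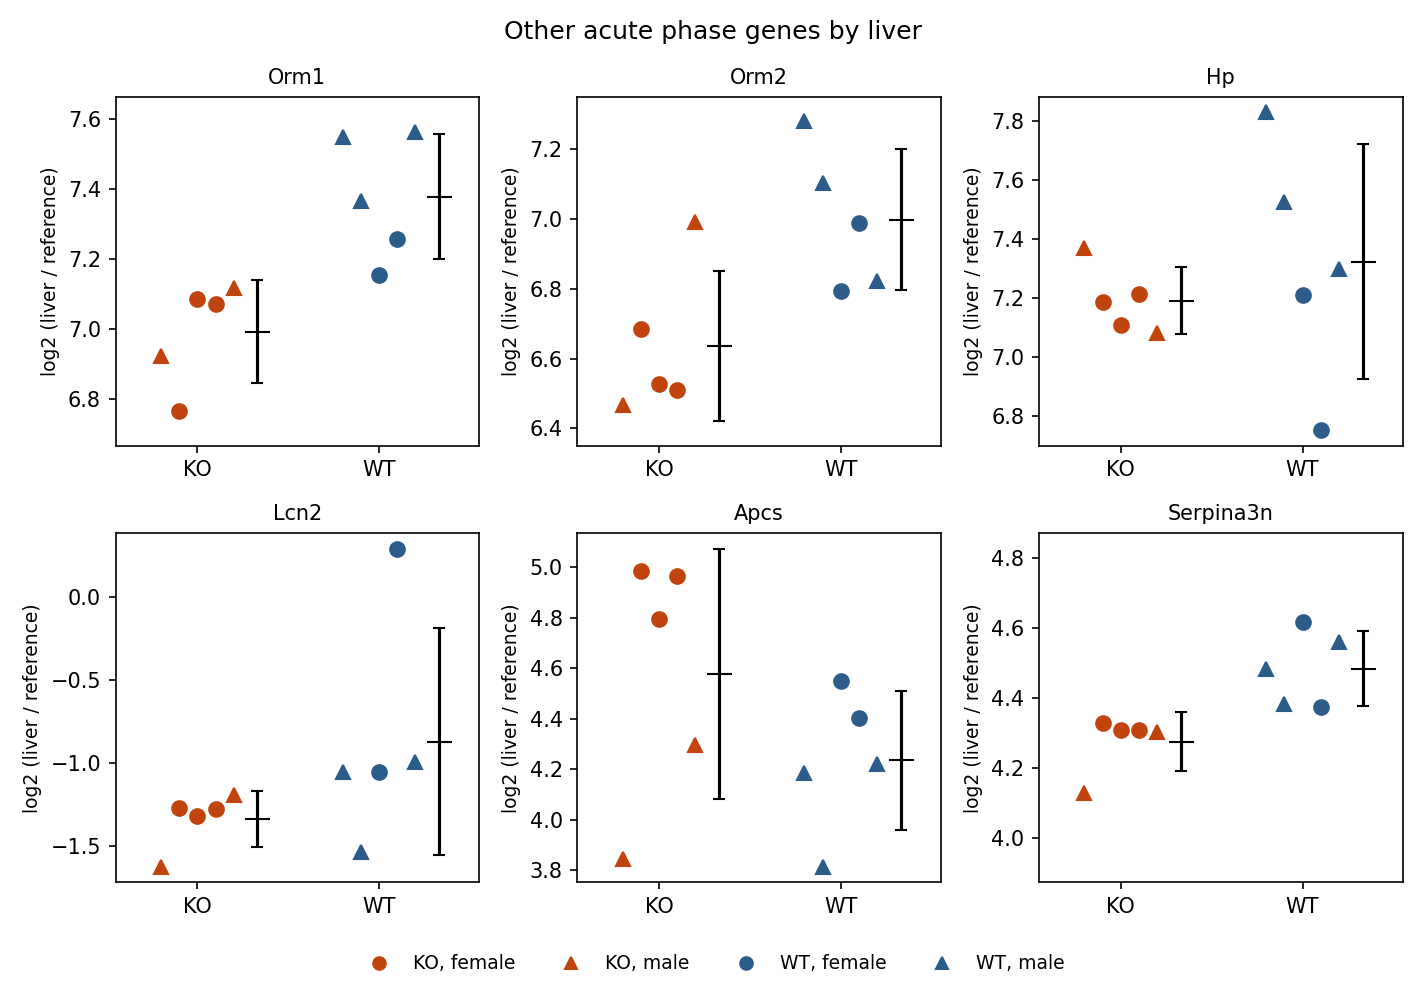
Log2 ratio of liver over reference for Orm1, Orm2, Hp, Lcn2, Apcs and Serpina3n, with KO livers left of WT livers, circles for females, triangles for males, and bars for the mean ± SD (n = 5 each). KO and WT livers do not overlap for Orm1 (highest KO 7.12, lowest WT 7.15) and Serpina3n, and the 3 KO females are highest for Apcs.

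Sex differences were measured in the same model. No slide held WT livers of both sexes, so sex and slide cannot be told apart within WT livers. Only slide 1 held KO livers of both sexes. Of the 10 genes, 3 passed, Saa3 and Saa4 as lower in females and Apcs as higher, where 11.5% of all genes passed and 6.55% passed as lower in females. Saa4 gave -0.64, female minus male (SE 0.16, limma adjusted p = 0.0270), and its second probe gave -0.83. In Cy5 alone these probes gave -1.10 and -0.90 (limma adjusted p over probes = 0.00451 and 0.00237). Mean Saa4 was 6.004 in KO females and 6.94 in KO males, and 6.61 in WT females and 6.94 in WT males. Apcs gave 0.62 (SE 0.13, limma adjusted p = 0.00810), with every female liver above every male liver, where 9.25% of all genes had no overlap between the sexes in either direction. Saa3 gave -1.17 (SE 0.33, 0.0404), and Saa1 (-1.12, SE 0.34, 0.0536) and Saa2 (-0.44, SE 0.14, 0.0604) did not pass. Saa1 passed without WT 2 (-1.26, limma adjusted p = 0.0413) or WT 4 (-1.49, 0.00925), and Saa2 without KO 3 (-0.51, 0.0354). The second Saa1 probe passed, at -0.96 by ratio (limma adjusted p over probes = 0.0119) and -1.49 in Cy5 alone (0.0241). With slide as a block Saa3 did not pass for sex (-1.32, 0.116) and Saa2 did (-0.71, 0.0101). The Saa4 call ended without any KO liver, and without WT 1 or WT 3 (limma adjusted p of 0.0563 to 0.0678), and the Saa3 call ended without any KO liver, and without WT 1, 3 or 5 (0.0565 to 0.122). The count of 3 became 1 without KO 1, 2, 4 or 5 or without WT 1 or WT 3. The Apcs call held without each liver in turn.

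KO and WT females shared no slide, so genotype and slide cannot be told apart in the female estimates below. Among males only KO 1 shared a slide with WT males, so the male estimates are in part mixed with slide too. The KO difference had the same sign in both sexes for Saa1, at -1.77 (SE 0.49) in females and -1.47 (SE 0.49) in males. For Saa4 it was -0.60 (SE 0.20) in females and 0.00 (SE 0.20) in males, and for Apcs 0.44 (SE 0.16) in females and 0.00 (SE 0.16) in males. None of the 10 genes passed within females, where 4.43% of all genes did, or within males, where 2.36% did. At an unadjusted p under 0.05 the counts were 6 in females, against 19.5% of all genes, and 4 in males, against 17.0%. The female difference minus the male difference passed in 0 of the 10 genes by limma, against 0.0317% of all genes, and in 0 at an unadjusted p under 0.05, against 12.5% of all genes. The estimates were -0.30 (SE 0.69) for Saa1, -0.60 (SE 0.28, limma adjusted p = 0.411) for Saa4 and 0.44 (SE 0.22, 0.441) for Apcs.

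Of 24 further positive acute phase genes, all measured, 2 rose by ratio and none fell, with a median fold change of -0.05. Over all genes 5.96% passed in either direction. At an unadjusted p under 0.05 the count was 7 of the 24, against 20.9% of all genes. In Cy5 alone 5 of the 24 passed, 2 of them lower in KO livers. Cp, which encodes the copper oxidase ceruloplasmin, rose to 2.76 to 3.20 in KO livers, against 1.98 to 2.56 in WT livers, a fold change of 0.66 (SE 0.07, limma adjusted p = 0.000493). Cd14, the lipopolysaccharide co-receptor, rose by 0.68 (SE 0.13, 0.0106), with all KO livers above all WT livers. Of 12 negative acute phase genes, such as Alb and Ttr, which the response lowers, 0 passed by limma, 1 had an unadjusted p under 0.05, and the median was -0.02. Of 9 relatives measured (serpin A3, Orm3 and Crp), 0 passed and 0 had an unadjusted p under 0.05.

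Among the cytokines that induce the response, 8 of 10 were measured. Of these 1 passed and 3 had an unadjusted p under 0.05, against 5.96% and 20.9% of all genes. Il1b, interleukin-1 beta, rose: it read 0.97, 1.54, 2.64, 1.82 and 1.31 in KO livers 1 to 5, against 0.03, -0.10, 1.09, 1.02 and 0.33 in WT livers. The groups overlapped only through KO 1, a male, below both WT females. The fold change was 0.998 (SE 0.18, limma adjusted p = 0.00897), the opposite direction to Saa1. Il6 had a fold change of -0.26 (SE 0.10, limma adjusted p = 0.172) and Tnf of -0.01 (SE 0.08, 0.973), and neither passed.

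Of 9 cytokine receptors 1 passed and 4 had an unadjusted p under 0.05, against 5.96% and 20.9% of all genes. The gene that passed was Lifr, the receptor chain for leukaemia inhibitory factor that pairs with gp130. Its brightest probe read 5.65 to 5.91 in KO livers and 6.58 to 7.46 in WT livers, a fold change of -1.30 (SE 0.12, limma adjusted p = 0.000202). The 4 other Lifr probes gave -0.57 to -0.11 and did not pass, and the mean of all its probes did not pass either (-0.59, limma adjusted p = 0.0899). The interleukin-6 receptor chains did not pass, at -0.35 (SE 0.15, limma adjusted p = 0.194) for Il6ra and 0.10 (SE 0.08, 0.499) for Il6st, though Il6ra passed as lower without KO 5 (-0.54, limma adjusted p = 0.0158).

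Of 23 signal transducers, transcription factors and feedback genes, 1 passed, against 5.96% of all genes. At an unadjusted p under 0.05 the count was 11 of the 23, against 20.9% of all genes. Stat3, the transcription factor below gp130, fell by 0.35 on the log2 scale (SE 0.09, limma adjusted p = 0.0370), with a mean of -0.30 ± 0.16 in KO livers and 0.02 ± 0.13 in WT livers (SD, n = 5 each). Its second probe gave -0.06, and leaving out any liver but KO 5 and WT 5 ended the call (limma adjusted p of 0.0581 to 0.126). Socs3, the feedback inhibitor of this pathway, had a fold change of 0.43 (SE 0.19, limma adjusted p = 0.233), Nfkbia, an NF-kB target and inhibitor, of 0.43 (SE 0.16, 0.156), Cebpb of 0.48 (SE 0.20, 0.207) and Cebpd of 0.48 (SE 0.29, 0.383). With slide as a block Nfkbia (0.58, limma adjusted p = 0.0160) and Cebpd (0.81, 0.00359) passed as higher in KO, and Nfkbia also passed without WT 4 (0.59, 0.0494). KO 5 was the highest of the 10 livers at each of the 4 genes, with Cebpd at -1.20 in KO 5 against -2.31 or less in the other KO livers and -2.45 or less in WT livers. Without KO 5 the fold changes were 0.17 for Socs3, 0.23 for Nfkbia, 0.26 for Cebpb and 0.09 for Cebpd, and none passed (limma adjusted p of 0.330 to 0.830). Of 12 measured receptors and partners of the 10 proteins 1 passed and 3 had an unadjusted p under 0.05. Scarb1, the lipoprotein receptor that also takes up serum amyloid A, passed and rose by 0.46 (SE 0.07, limma adjusted p = 0.00248).

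**Figure D5:**
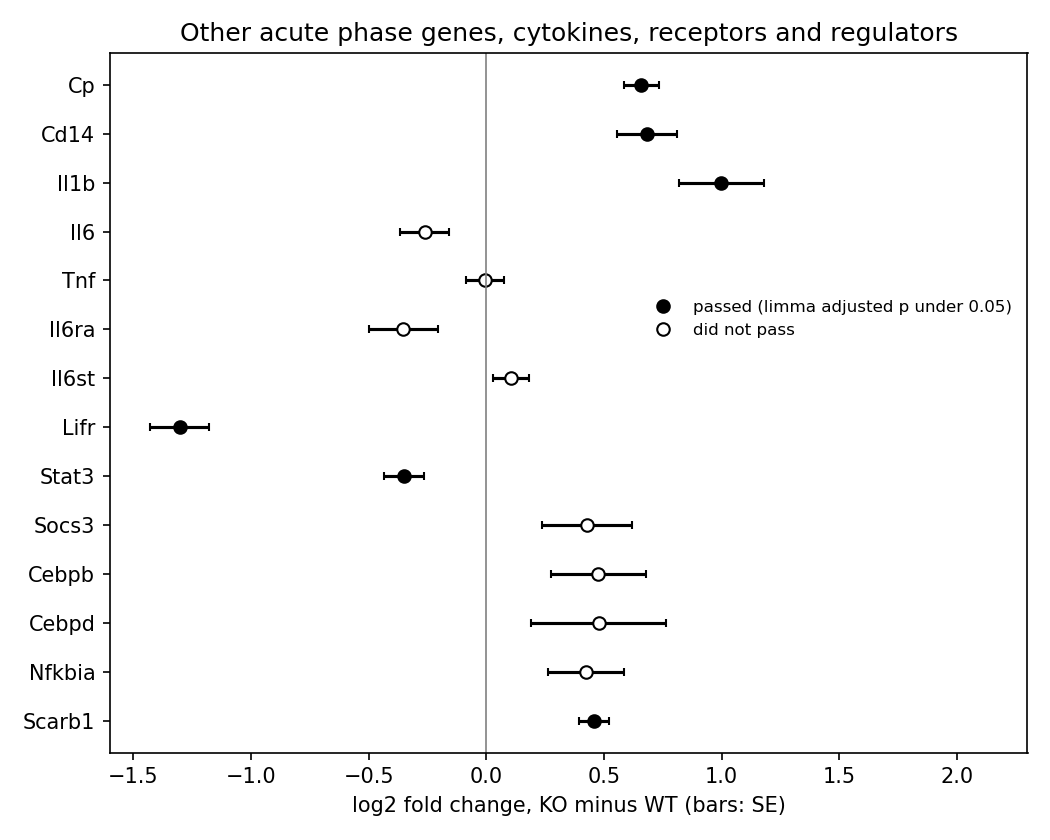
Log2 fold change, KO minus WT, with its standard error for 14 related genes, namely those of the acute phase, cytokine, receptor, regulator and partner lists that passed, together with the cytokine and regulator genes named in the text. Filled points passed limma at an adjusted p under 0.05 and open points did not. Il1b lies at 0.998 and Lifr at -1.30, on opposite sides of 0.

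Markers of other cells were read beside these values. Over all genes 5.96% passed and 20.9% had an unadjusted p under 0.05. Of 13 Kupffer cell and macrophage markers, all measured, 0 passed by limma and 1 had an unadjusted p under 0.05, and their mean log2 ratio was 3.28 to 3.99 in KO livers and 2.95 to 3.93 in WT livers. Of 12 neutrophil markers 5 were measured and 0 passed, 1 at an unadjusted p under 0.05, and Ngp, Camp and Elane were not above background on enough arrays to be tested. S100a9, a neutrophil calcium-binding protein, had a fold change of 1.18 (SE 0.42, limma adjusted p = 0.131). Of 2 monocyte markers measured 0 passed and 0 had an unadjusted p under 0.05, and of 5 adipocyte markers 0 passed and 2 had one. Among the adipocyte markers Cfd, which encodes adipsin, had a fold change of 2.81 (SE 0.89, limma adjusted p = 0.0908), and Adipoq and Lep were not tested. Of 8 T and B cell markers 1 passed: Cd79b, a chain of the B cell receptor, rose by 0.48 (SE 0.12, limma adjusted p = 0.0324), a call that ended when KO 1, 2 or 4 or WT 1, 2 or 3 was left out (0.0549 to 0.0958). Of the 9 hepatocyte markers 1 passed, tyrosine aminotransferase (Tat), which fell by 0.63 (SE 0.11, limma adjusted p = 0.00587). The part of these markers in the acute phase values was not tested.

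The 5 genes whose centred profile over the 10 livers lay closest to Saa1, out of 18847 genes, were the magnesium transporter Slc41a2 (root mean square difference 0.57), the bile acid transporter Slc10a2 (0.63), Gas2 (0.66), Enpp2 (0.67), which makes lysophosphatidic acid, and the phospholipid flippase Atp11a (0.68). Each was farther from Saa1 than Saa3 was, at 0.16. Slc41a2 ran from -1.57 to 1.04 in KO livers and from -0.34 to 1.77 in WT livers, with KO 5 highest among KO livers and WT 3 lowest among WT livers, as at Saa1. These genes were picked for likeness over livers that include the KO contrast, so their fold changes, -1.36 for Slc41a2, -0.70 for Slc10a2, -1.24 for Gas2, -0.99 for Enpp2 and -0.90 for Atp11a, describe the choice and are not separate results.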

How the data were processed

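Livers of 5 KO and 5 WT mice were measured on 2-colour Agilent mouse arrays. Per the labels' protocols, RNA was labelled with Agilent's Quick Amp kit, the liver with Cy5 and the universal mouse reference with Cy3, with no dye swap. Arrays were extracted with Agilent Feature Extraction (10.7 per the submitters' processing notes, 10.7.3.1 per the file headers). The mean spot signals and local backgrounds are deposited as intensity values on a linear scale, per the file headers, and the LogRatio column is deposited as log10 of Cy5 over Cy3, also per the file headers. A table of the authors' processed values holds log2 ratios, whose scale and direction were found by comparison with each array (r of 0.9994 to 0.9996). The labels do not say how it was normalised. Flags for outlier, background and saturated spots are deposited as 0 or 1 per the file headers.

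Of 45018 spots per array, 1639 were controls and 169 to 291 were flagged as outliers and left out. Signals were corrected with normexp (offset 50) and normalised by loess within arrays. Outlier spots came out before the background fit, an order taken over from an earlier analysis of these data. A probe was kept if its Cy5 signal was flagged as well above background on 4 or more of the 10 arrays (26933 probes), spots of a probe were averaged, and the brightest probe stood for each gene (18921 genes, 64 with a missing value). A RefSeq table (GRCm38.p6) gave the gene of 22944 probes through their accession, of 6664 through their symbol and of 3108 through an older synonym. The remaining 8458 of 41174 probes kept the name in the file. Probe coordinates are those of build mm7, per the file headers. No annotation of mm7 was used here.

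Fits used limma 3.58.1 in R 4.3.3 with genotype and sex over all 10 livers, Benjamini-Hochberg adjustment over all genes and a threshold of 0.05. A second model added their interaction. Intervals are 95% intervals of the fit. The fit was checked on data simulated from the fitted model, with independent errors and no slide effect. That check cannot speak to slide effects in the real arrays. Replicates are livers the series describes as separate mice, and their number limits the precision. KO and WT livers that share a number were not treated as pairs in the main fit. The deviations of same-numbered livers correlated at -0.43 to 0.53, which cannot settle whether the numbers pair them.

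Named were all 10 genes with every probe, each listed gene that passed for genotype, a set of cytokines, receptors and regulators whatever they did (Il6, Il1b, Tnf, Il6ra, Il6st, Stat3, Socs3, Cebpb, Cebpd and Nfkbia), and the 5 genes most like Saa1. S100a9, Cfd and Orm3 were named after their values were seen. The members and lists were chosen with earlier results of these data known. Alternatives changed the background order, normalisation, channel, filter, probe summary, sex term, slide, replicate block and livers included. The analyses of Cy5 with slide as a block, and of Saa2 in Cy5 with each liver left out, were added after seeing the data.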

Additional observations from a re-analysis of the deposited data

Results flagged for a closer look

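Serpina3n in KO 1 read 4.13, well below the next KO liver at 4.30 and the other KO livers up to 4.33. Its gap to the nearest KO liver was 0.871 of the range of the KO group, above Dixon's critical value of 0.71 for 5 livers. Of 24 groups of 5 livers examined this way (12 probes, KO and WT), 1 was of this kind, and chance gives about 1 in 20. Just under the critical value lay Lcn2 in KO 1 (0.709) and in WT 4 (0.703).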

How the results depend on the processing

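The sign of the KO difference held under the alternatives run for Saa1, Orm1, Serpina3n and Lcn2. Serpina3n and Lcn2 passed under none of them, while the calls of Saa1, Saa3 and Orm1 did not hold throughout. Of 26 alternatives, Saa1 kept its call in 17, Saa3 in 11 and Orm1 in 7. The count of the 10 genes was 0 with outlier spots removed after the background fit, without a sex term, with a replicate block, without both male KO livers and within slide 1. It was 1 with median centring and 1 in Cy5 alone with slide as a block, and ran from 0 to 3 with each liver left out. Over all genes 779 passed without both male KO livers and 1112 in Cy5 alone with slide as a block, against 1127 in the main fit. The count over all genes was 337 with outlier spots removed late, 279 with median centring (78 of them lower in KO, against 582 of 1127), 619 without a sex term, 303 with the replicate block, 331 within slide 1, and 590 to 1173 with each liver left out (596 without KO 1, 667 without KO 4 and 590 without WT 3). The count for sex was 1 by the scanner's log ratio, 0 with outlier spots removed late, 1 with median centring, 5 with slide as a random block, 0 with the replicate block, 0 without both male KO livers, 1 within slide 1, and 1 to 4 with each liver left out. The interaction count stayed at 0 in the 21 alternatives run. Fewer livers were fitted within slide 1, within slide 3 and without the male KO livers. The lone KO liver of slide 3 was assumed to vary like the WT livers, so no count is given for that slide. The cause of the changes in count was not tested for any alternative.

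These differences changed sign. Hp was 0.0045 with outlier spots removed late, 0.188 without both male KO livers, 0.100 within slide 3, 0.0949 in Cy5 with slide as a block, and -0.22 to 0.0455 with each liver left out. Within slide 3, which sets a KO male against WT females, Saa2 was 0.128, Saa3 0.177, Saa4 0.584, Orm2 0.1001, Apcs -0.179, Il6st -0.211, Slc41a2 1.18, Slc10a2 0.771 and Enpp2 0.326. Apcs was -0.155 within slide 1, and Cebpd -0.269 without both male KO livers. Tnf was 0.0923 by the scanner's log ratio, 0.075 with median centring, 0.0104 in Cy5 alone, 0.017 in the authors' value table, 0.000105 with slide as a fixed block, 0.000901 as a random block, 0.0207 with the replicate block, 0.153 within slide 1, and -0.052 to 0.0784 with each liver left out. Female minus male, Serpina3n was -0.0408 by the scanner's log ratio, Orm1 0.138 and Orm2 0.097 with outlier spots removed late, and Orm2 0.219 within slide 1. Without both male KO livers Il1b (0.944, limma adjusted p = 0.0835) and Cd14 (0.469, 0.103) did not pass. Lcn2 was near background, well above it in 4 of 5 KO and 4 of 5 WT livers, which limits its value.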
